A study of Mus musculus with 48 samples.

Results

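The mouse genes of the 4 replication-dependent histone clusters were described across osteocyte-like cells, young bone and old bone, and within each comparison that the study's design allows. They were every row of the 4 deposited expression tables whose gene symbol begins with Hist1h, Hist2h, Hist3h or Hist4h. This took 70 of the 55335 gene rows, the same 70 in each table. On the mouse build GRCm38, 56 are named for the Hist1 cluster on chromosome 13, of which 55 lie within chr13:21715763-23934851 and the pseudogene Hist1h2al lies far from them (chr13:51202727-51203065). A further 10 belong to Hist2 on chromosome 3 (chr3:96219865-96270132), 3 to Hist3 on chromosome 11 (chr11:58948920-58956830) and 1 to Hist4 on chromosome 6 (chr6:136801553-136804415). By class, 6 are H1, 20 H2A, 19 H2B, 12 H3 and 13 H4 genes. The annotation lists 67 of them as protein coding and 3 (Hist1h2aj, Hist1h2al and Hist3h2bb-ps) as pseudogenes.

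H2A, H2B, H3 and H4 form the core of the nucleosome, around which DNA is wound, and H1 binds the linker DNA between nucleosomes. The clustered genes are transcribed mainly in S phase, when new DNA must be packaged. Their messages classically end not in a poly(A) tail but just after a short stem-loop, which the stem-loop binding protein (Slbp) holds, and they are destroyed quickly when DNA synthesis stops. Some of the clustered genes also give longer, polyadenylated messages from a signal further downstream, a form known from cells that have left the cell cycle. Because the libraries were made from RNA purified on oligo(dT) beads, a tailless histone message should be largely lost, so the values below are levels after poly(A) selection and not the total amount of histone mRNA.

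All samples are labelled C57BL/6J and wild type, and 27 libraries in 9 groups of 3 were analysed. MLO-Y4, a mouse osteocyte-like cell line (a single line, made from a mouse carrying the SV40 large T antigen under the osteocalcin promoter), gave 6 groups. They were cells given oligomycin A (an inhibitor of the mitochondrial ATP synthase) at 50 µM for 1 h; cells given the same volume of DMSO, the vehicle, for 1 h; other MLO-Y4 cells given for 2 h the supernatant of the oligomycin A cells or of the vehicle cells; cells given 2 µM ADP for 2 h; and cells with no ADP. The treatment field of these libraries writes 50 mM where the protocol gives 50 µM, and that of both vehicle groups names oligomycin A beside DMSO, whereas their titles and the protocol give DMSO. Whether oligomycin A was removed before its supernatant was passed on is not stated. The bone groups were cortical bone of the femur and tibia of 18-month-old mice, and fragments of the long bones and parietal bones of 1-month-old mice, either titled medium transfer or titled control. The young fragments were cultured 48 h after a change to medium conditioned by bone of young or old mice, and the labels do not say which donor each of the 2 groups had. By the protocol's wording the cortical bone was harvested with nonosseous tissue, marrow included. The labels do not state that the replicates of a group are distinct cultures or mice, so a p-value here covers the spread between these libraries only.

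The 16-base histone stem-loop consensus was found in an annotated transcript of 46 of the 70 genes and of 56 of the 21901 protein-coding genes searched (0.256%). The sequences below are those of the genes on which the results turn, on GRCm38 (GENCODE M21), on the transcript's strand from 5′ to 3′, with the stem-loop in capitals. Each stem-loop begins shortly after the stop codon: 24 bases after it in Hist1h1c and 38 in Hist1h2ao.
Hist1h1c, chr13:23739506-23739535, plus strand: ccaaaaGGCTCTTTTCAGAGCCaccactcc
Hist1h2bg, chr13:23571837-23571866, plus strand: cccaaaGGCTCTTTTCAGAGCCacccatac
Hist3h2a, chr11:58955166-58955195, plus strand: accaaaGGCTCTTTTCAGAGCCacccacaa
Hist1h4i, chr13:22040958-22040987, minus strand: cttaaaGGCCCTTTTTAGGGCCaccacaaa
Hist1h2ao, chr13:21810892-21810921, plus strand: aaaaaaGGCTCTTTTCAGAGCCatccacag
Hist1h2ap, chr13:21833026-21833050, minus strand: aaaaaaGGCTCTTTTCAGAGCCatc
The same 16 letters, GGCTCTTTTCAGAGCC, stand in 26 of the 46 genes. What differs among the printed genes is the length of annotated transcript after the stem-loop. In Hist1h2ap 3 bases follow it and in Hist1h2ao 31, whereas 155 follow in Hist1h2bg, 330 in Hist1h4i, 840 in Hist1h1c and 1643 in Hist3h2a.

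The 70 genes were sorted by this end, without use of their levels. Set apart first were the 16 with a poly(A) signal (AATAAA or ATTAAA) 10 to 40 bases before an annotated end. Of the rest, in 20 the annotated transcript ends within 60 bases of the stem-loop. In 13 it runs on past the stem-loop with no poly(A) signal at the annotated end, and in 21 it holds neither. The 16 thus include genes that also end near the stem-loop, such as Hist1h4h, with 46 bases after it. The poly(A) signal was thus present in 22.9% of the histone genes, against 75.6% of all protein-coding genes. Some of the 21 are annotated over little more than the coding sequence. Hist1h4k has 312 bases, where the coding sequence of Hist1h4i has 309, and Hist1h2ai 393, where that of Hist1h2ao has 390. A stem-loop or signal beyond such an annotated end could not be found, which also limits the count of 46 and the 22.9%. Hist1h1c, a linker histone gene with 1 exon (chr13:23738808-23740367, 1560 bases, of which 636 are coding), Hist2h2be (1 exon, chr3:96221119-96223738, 2620 bases), Hist3h2a (1 exon, chr11:58954685-58956830, 2146 bases) and Hist1h4i (1 exon, chr13:22040636-22041362) are among the 16. Hist1h2bc, an H2B gene, has 2 annotated exons: the first (chr13:23684199-23684621) holds the whole coding sequence and ends soon after the stop codon, and the second (chr13:23692176-23692908) lies downstream and is untranslated; no stem-loop match was found in the joined transcript.

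Promoters of these genes are known to share short elements within a class. RefSeq windows from 250 bases before to 50 bases after the start (GRCm38.p6) were matched for 62 of the 70 genes, and both strands were searched. The CCAAT box, CCAAT, was present in 53 of the 62 (85.5%), against 37.9% of the 27025 promoters in the table, in each of the H1, H2A, H2B and H3 windows but in 3 of 12 H4 windows. The TATA box, TATAAA, was present in 35 (56.5%), against 14.2% of all promoters. The octamer, ATTTGCAT, was present in 13 (21%), against 1.75%; these were 7 of 18 H2A and 6 of 16 H2B windows and no H1, H3 or H4 window. The 150 bases before the start are shown for a linker gene, an H2A gene and an H2B gene, with the motifs in capitals as read on either strand.
Hist1h1c, chr13:23738657-23738806, plus strand: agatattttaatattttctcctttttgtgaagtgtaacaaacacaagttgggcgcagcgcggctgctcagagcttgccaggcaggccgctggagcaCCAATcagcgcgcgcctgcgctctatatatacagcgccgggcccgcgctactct
Hist3h2a, chr11:58954535-58954684, plus strand: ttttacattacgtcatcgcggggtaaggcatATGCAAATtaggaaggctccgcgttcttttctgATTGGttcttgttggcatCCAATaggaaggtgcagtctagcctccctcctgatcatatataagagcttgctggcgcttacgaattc
Hist1h2bg, chr13:23571250-23571399, plus strand: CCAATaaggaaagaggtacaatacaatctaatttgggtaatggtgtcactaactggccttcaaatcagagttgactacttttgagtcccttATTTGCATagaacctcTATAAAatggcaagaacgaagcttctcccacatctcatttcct
The octamer stands in the Hist3h2a and Hist1h2bg windows and not in that of Hist1h1c, and the exact letters TATAAA are printed in Hist1h2bg alone of the 3.

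Levels are given in FPKM (sequenced fragments per kilobase of gene, scaled for library depth) as deposited. Depth was estimated roughly, as the depth at which the most low values lie near whole fragments. That share was 39.6 to 43.4% in MLO-Y4, against 16.7 to 17.7% at the median depth tried. In 4 of the 6 young bone libraries it was 28.7 to 30.0%, against 19.6 to 19.8%, a weaker signal. By this estimate 1 fragment per kilobase was worth 0.0194 to 0.0329 FPKM in MLO-Y4. In the 4 young libraries it was worth 0.292 to 0.34 FPKM, which would make them much shallower. The other 2 young libraries and the old ones could not be resolved. In MLO-Y4 the osteocyte gene Sost was at 0, Dmp1 and Mepe at no more than 0.134 FPKM, and Pdpn at 150.7 to 290.0 FPKM. The proliferation gene Mki67 was at 20.5 to 34.1 FPKM in old bone, 0.917 to 2.56 FPKM in young bone and 80.4 to 136.2 FPKM in MLO-Y4. Haemoglobin genes took 43.6 to 45.3% of all FPKM in old bone. Libraries that stood apart were vehicle replicate 2, in which rRNA-like and 7S genes took 27.2% of the FPKM against 0.211 to 0.414% in the other 11 libraries of that table, ADP replicate 1, in which 7S genes took 1.74% against 0.0177 to 0.031% in the other 5 of its table, and the young bone libraries, in which satellite-like genes took 66.1 to 89.9% of the FPKM except in medium transfer replicate 2 (5.80%). Of the 70 histone genes, 29 have fewer than 50% of their 100-base stretches to themselves among annotated transcripts, 5 have none, and 26 overlap an exon of another gene; the sources used here do not say how the authors' counting treated shared reads, so levels of single near-identical genes are uncertain.

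In MLO-Y4 cells a handful of histone genes carried most of the signal and the rest lay close to 0. With no ADP, 5 of the 70 genes reached a mean of 1 FPKM (7.14%, against 20.9% of all gene rows), and the median of the 70 means was 0.121 FPKM. The linker gene Hist1h1c was the highest, at 9.35, 10.5 and 11.5 FPKM. It was followed by the H4 gene Hist1h4i at 5.27, 4.69 and 5.18 FPKM, then by the H2B genes Hist1h2bc at 3.47, 3.75 and 3.64, Hist1h2bg at 1.26, 1.39 and 1.53, and Hist2h2be at 1.17, 1.04 and 1.21 FPKM. The order Hist1h1c, Hist1h4i, Hist1h2bc, Hist1h2bg holds in each, while Hist1h2bg and Hist2h2be lie within 0.4 FPKM of each other. The most abundant H2A gene of this table, Hist1h2ag, was at 0.631, 0.334 and 0.383 FPKM, and the most abundant H3 gene, Hist1h3h, at 0.646, 0.392 and 0.749 FPKM. The H2B gene Hist1h2bj was at 0.382, 0.241 and 0.363 FPKM. All 70 together summed to 31.4, 29.1 and 30.4 FPKM. The same 5 genes led the table with oligomycin A and its supernatants, followed there by Hist3h2a, Hist1h3c and Hist2h3c1. The single H4 gene of the Hist4 cluster, Hist4h4, stayed between 0 and 0.126 FPKM in the 18 MLO-Y4 libraries, the H2B gene Hist3h2ba at 0.109 or below and the pseudogene Hist3h2bb-ps at 0.225 or below.

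**Figure D1:**
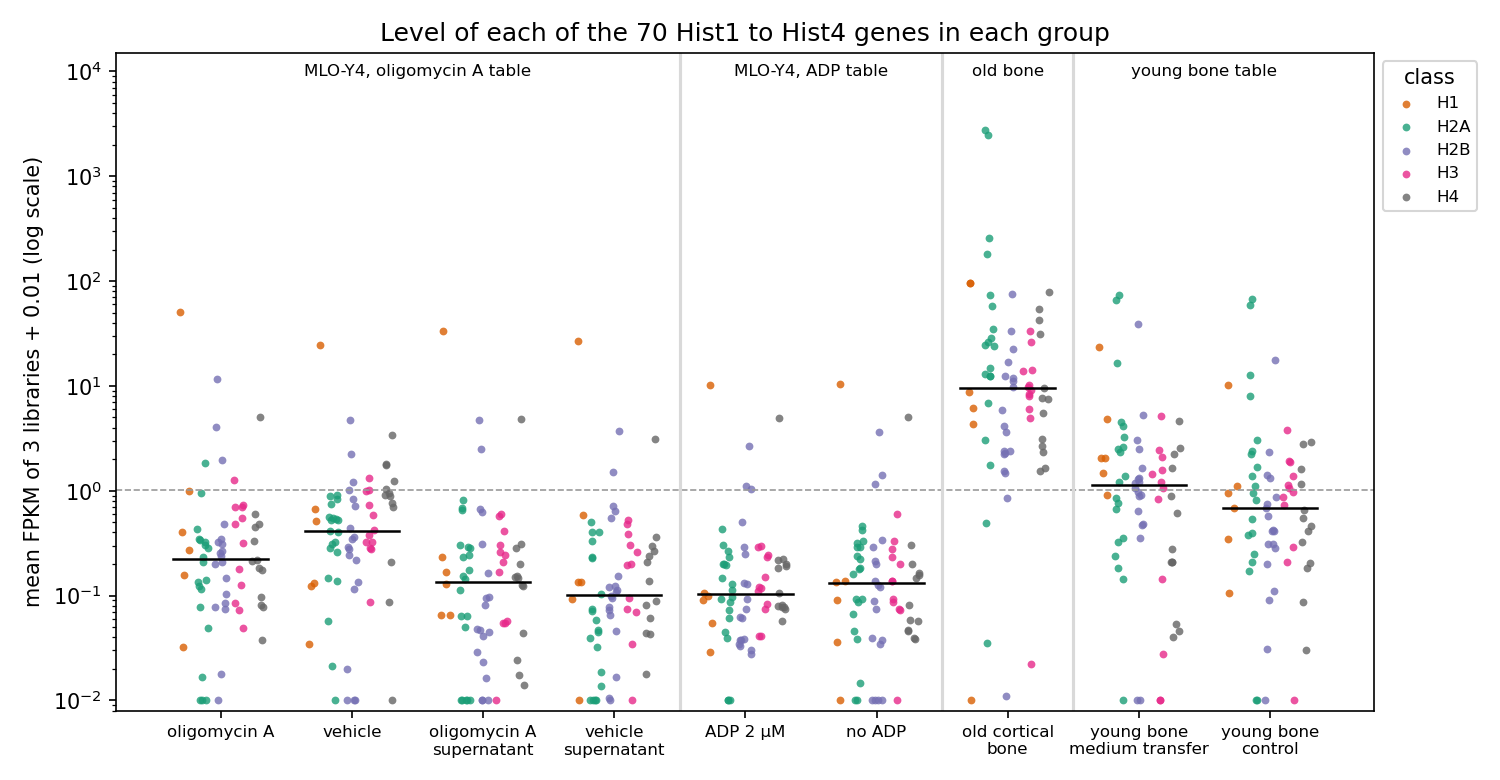
Each point is 1 of the 70 histone genes, placed at its mean FPKM over the 3 libraries of a group plus 0.01 on a log axis and coloured by class; black bars are group medians, the dashed line marks 1 FPKM, and grey lines divide the 4 separately normalized tables. Most genes lie below 1 FPKM in the 6 MLO-Y4 groups, where Hist1h1c is the top point, and above it in old cortical bone, where the H2A genes Hist1h2ap and Hist1h2ao are the top points.

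In old cortical bone most of the histone genes were detected: 64 of the 70 genes reached a mean of 1 FPKM (91.4%, against 18.8% of all gene rows), the median was 9.58 FPKM, and the 70 genes summed to 6753, 6014 and 7869 FPKM, or 0.736 to 0.937% of each library's total. The tables were normalized separately, so levels are set side by side across them without a test. The H2A pair Hist1h2ap and Hist1h2ao made up 75.7, 79.1 and 76.0% of the histone sum. Hist1h2ap was at 2703, 2508 and 3171 FPKM, 26th among all genes by mean, and Hist1h2ao at 2412, 2247 and 2813 FPKM, 29th. Only 7.83% and 7.35% of their 100-base stretches are unique, and the ratio of Hist1h2ao to Hist1h2ap stayed between 0.877 and 0.903 in all 9 bone libraries, so the pair is best read as 1 quantity. The H2A genes Hist1h2ag (182.8, 275.9 and 310.7 FPKM) and Hist1h2ae (219.1, 142.7 and 178.1) came next. Without the pair the other 68 genes still summed to 1259 to 1886 FPKM.

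The other classes were also spread over many genes in old bone. Of the H1 genes, Hist1h1c was at 101.2, 81.1 and 105.1 FPKM and Hist1h1b at 103.0, 71.4 and 112.5. The leading H4 gene was Hist1h4d (88.4, 57.2 and 91.1 FPKM), which stands alone in sequence, with 100% of its stretches unique. Hist1h2bc led the H2B genes (75.2, 63.6 and 86.2 FPKM) and Hist1h3i the H3 genes (41.6, 24.8 and 33.4 FPKM). All 13 H4 genes, 18 of 20 H2A, 17 of 19 H2B, 11 of 12 H3 and 5 of 6 H1 genes reached 1 FPKM. The Hist3 and Hist4 genes were lower: Hist3h2a was at 14, 12.2 and 11.3 FPKM, Hist3h2ba at 10.5, 8.96 and 9.61, Hist3h2bb-ps at 2.61, 2.41 and 1.77, and Hist4h4 at 1.99, 0.797 and 2.11. Below 1 FPKM were Hist1h1t, Hist1h2aa, Hist1h2al, Hist1h2ba, Hist2h2bb and Hist2h3b, of which Hist1h1t, Hist1h2aa and Hist1h2ba are known as testis histone genes.

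By annotated end, the genes that end at the stem-loop had the highest sum in old bone, whereas in each of the 18 MLO-Y4 libraries the genes with a poly(A) signal did. Hist1h1c was the largest single part of those MLO-Y4 sums. By the median of the gene means, the genes with a signal were the lower class in each MLO-Y4 group. Those medians were 0.0559 to 0.289 FPKM with a signal and 0.131 to 0.610 FPKM for the genes that end at the stem-loop. The 20 genes that end at the stem-loop summed to 5704, 5240 and 6788 FPKM in old bone, all 20 of them at 1 FPKM or more in replicate 1 and 19 in each of replicates 2 and 3, and the median of their means was 15.5 FPKM. That sum includes Hist1h2ap and Hist1h2ao. The 16 genes with a poly(A) signal summed to 447.3, 310.0 and 411.6 FPKM with a median of 4.51 FPKM. Hist2h2be, one of the 5 leading genes of MLO-Y4, was at 1.51, 1.27 and 1.58 FPKM. Beside these values, some markers of cells that old bone can hold were high. The erythroid list had a median of 244.2 to 271.6 FPKM over the 9 of its genes found in the tables. The neutrophil granule list of 12 genes had a median of 1125 to 1683 FPKM. The B cell list had a median of 3.059 to 3.987 FPKM, inside the 0.4451 to 4.503 FPKM of young bone. Its sum, 132.0 to 150.9 FPKM, was above the 11.05 to 60.66 FPKM of young bone. The S-phase list of 28 genes had a median of 13.4 to 16 FPKM. That was above young bone (0.876 to 3.55 FPKM) and below MLO-Y4 (22.5 to 26.5 FPKM). In a bulk sample fewer cells of a type and less RNA per cell cannot be told apart, and the part of these cell types in the histone levels was not tested. The list of RNAs without a poly(A) tail summed to 3531, 3880 and 3578 FPKM in old bone and 578.5 to 1404 FPKM in young bone. In MLO-Y4 it summed to 10.8 to 88.6 FPKM, except 2798 in vehicle replicate 2 and 4680 in ADP replicate 1. How much tailless histone message was carried into the old bone libraries was not tested. Age, culture and tissue differ together between the old and young bone, so they cannot be told apart either.

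Young bone stood between the other sources: 37 of the 70 genes reached a mean of 1 FPKM with medium transfer (52.9%) and 26 in the control (37.1%), against 35.5% and 22.9% of all gene rows. By library the counts were 35, 32 and 20 with transfer and 22, 25 and 28 in the control, so the groups overlapped. Hist1h2ap and Hist1h2ao again led, Hist1h2ap at 91.1, 74.9 and 56.5 FPKM with medium transfer and 50.7, 56.2 and 94.7 FPKM in the control. Hist1h2bc was at 26.8, 72.4 and 18.7 FPKM with transfer and 19.7, 15.8 and 17.9 FPKM in the control, and Hist1h1c at 13.1, 49.1 and 7.83 against 9.95, 9.79 and 10.6 FPKM. For both of these genes transfer replicate 2 was the highest of the 6 libraries, and the groups overlapped. The leading H3 gene was Hist1h3e (7.39, 6.35 and 1.59 FPKM with transfer, 1.93, 2.95 and 6.48 in the control), and the leading H4 gene Hist1h4i (5.71, 7.16 and 0.833 against 2.89, 2.31 and 3.18 FPKM). Hist3h2a was at 4.72, 7.67 and 1.27 FPKM with transfer and 3.32, 2.09 and 3.69 FPKM in the control, and Hist4h4 at 1.43, 0.337 and 0.903 against 0.379, 0.359 and 0.601 FPKM. Hist3h2ba was at 0, 2.19 and 0.932 FPKM with transfer and 0, 0.444 and 0.387 FPKM in the control, and Hist3h2bb-ps at 0.0635 FPKM or below in all 6. At the depth estimated for 4 of these libraries a value near 1 FPKM for a short histone gene rests on very few fragments, and a 0 cannot be told from a low level there.

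**Figure D2:**
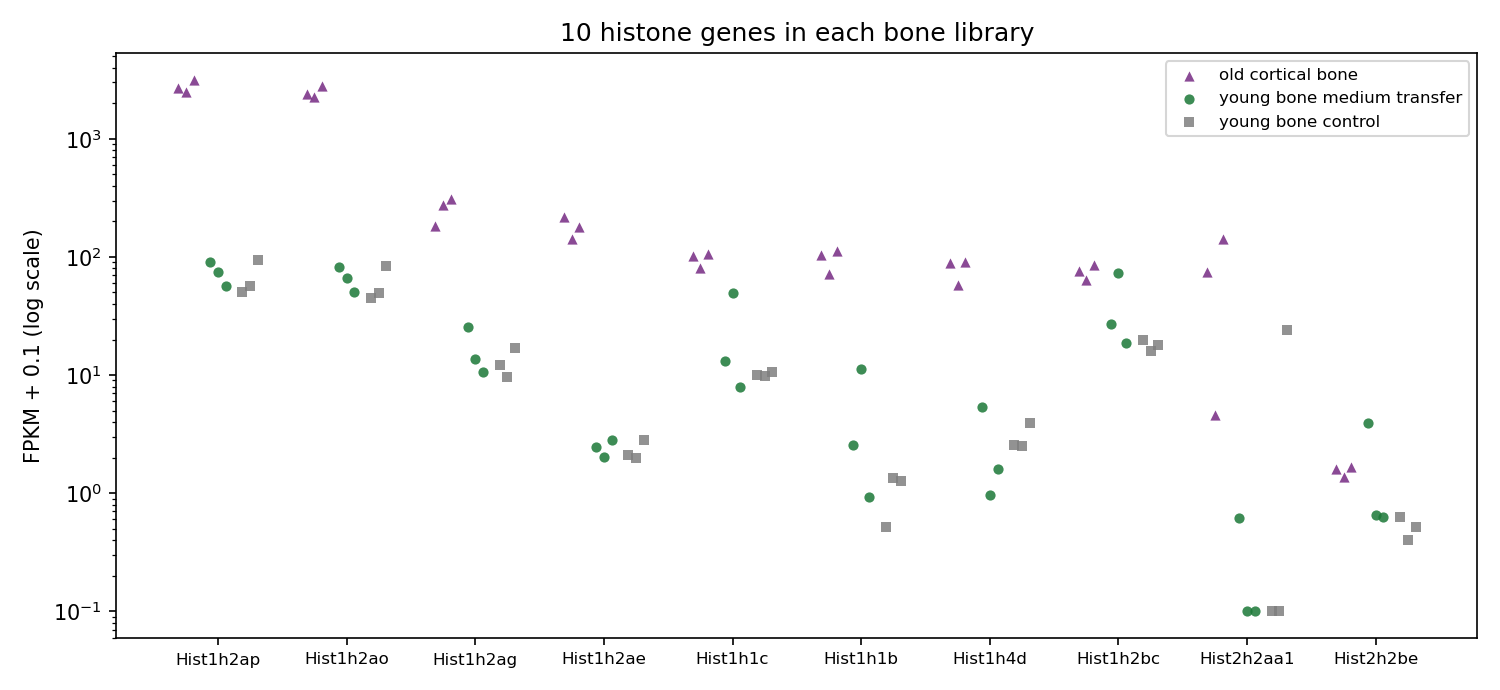
FPKM plus 0.1 (log axis) of 10 histone genes in each library of old cortical bone (triangles), young bone with medium transfer (circles) and young bone control (squares), 1 point for each of 3 libraries. In old bone Hist1h2ap and Hist1h2ao lie at 2247 FPKM or more, while Hist2h2be lies between 0.298 and 3.83 FPKM over all 9 libraries.

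In 1 MLO-Y4 library the set of detected histone genes was different. Vehicle replicate 2 had 31 of the 70 genes at 1 FPKM or more, whereas the other 11 libraries of the oligomycin A table had 3 to 9. The 20 genes that end at the stem-loop summed to 28.1 FPKM there, with 13 at 1 FPKM or more, against sums of 2.64 to 6.29 FPKM and 0 to 1 such genes in the other 11. The 13 genes that run on past the stem-loop with no signal summed to 21.98 FPKM, against 2.48 to 9.59, with 6 at 1 FPKM or more against 0 to 1. The 16 genes with a poly(A) signal summed to 34.5 FPKM, inside the range of the others (29.6 to 73.1 FPKM). Hist1h1c alone made up 21.3 FPKM of that sum, and single genes of the class were high. Hist1h4h, which also ends 46 bases after the stem-loop, was at 3.06 FPKM, against at most 0.396 in the other 11. Hist1h4a was at 2.72 FPKM, against at most 0.226. The 21 with no stem-loop match summed to 20.1 FPKM, against 3.40 to 18.4, a range to which Hist1h2bc contributes up to 12.97 FPKM, and 8 of them were at 1 FPKM or more, against 1 to 3. In this last class Hist1h4k was at 2.23 FPKM, against at most 0.818 in the other 11. Hist1h4d, which runs on past the stem-loop, was at 5.07 FPKM in vehicle replicate 2 and at 0.174 and 0.117 in replicates 1 and 3, and Hist1h4c at 4.64 against 0.551 and 0.0811 FPKM. In the same library tailless RNAs that are no histone messages were high: the 7SL RNA gene Rn7s1 was at 836.6 FPKM, against 5.33 and 5.66 in vehicle replicates 1 and 3, and the 7SK RNA gene Rn7sk at 801.6 against 3.74 and 4.75 FPKM. The tailless RNA list summed to 4680 FPKM in ADP replicate 1 and to 2798 FPKM in vehicle replicate 2. In the other 5 libraries of the ADP table it summed to 52.9 to 88.6 FPKM. The median of the list, which a few high genes do not set, was 0.206 FPKM in ADP replicate 1. That lay inside the 0.113 to 0.248 FPKM of those 5, whereas vehicle replicate 2 had 1.31 FPKM. In ADP replicate 1 the 20 genes that end at the stem-loop summed to 3.52 FPKM, inside the 2.44 to 5.17 FPKM of those 5. The rRNA-like share was 26.5% in vehicle replicate 2 and 0.204% in ADP replicate 1. The cause of the histone values in vehicle replicate 2 was not tested. Because it is a vehicle library, values without it are given where they change a result.

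**Figure D3:**
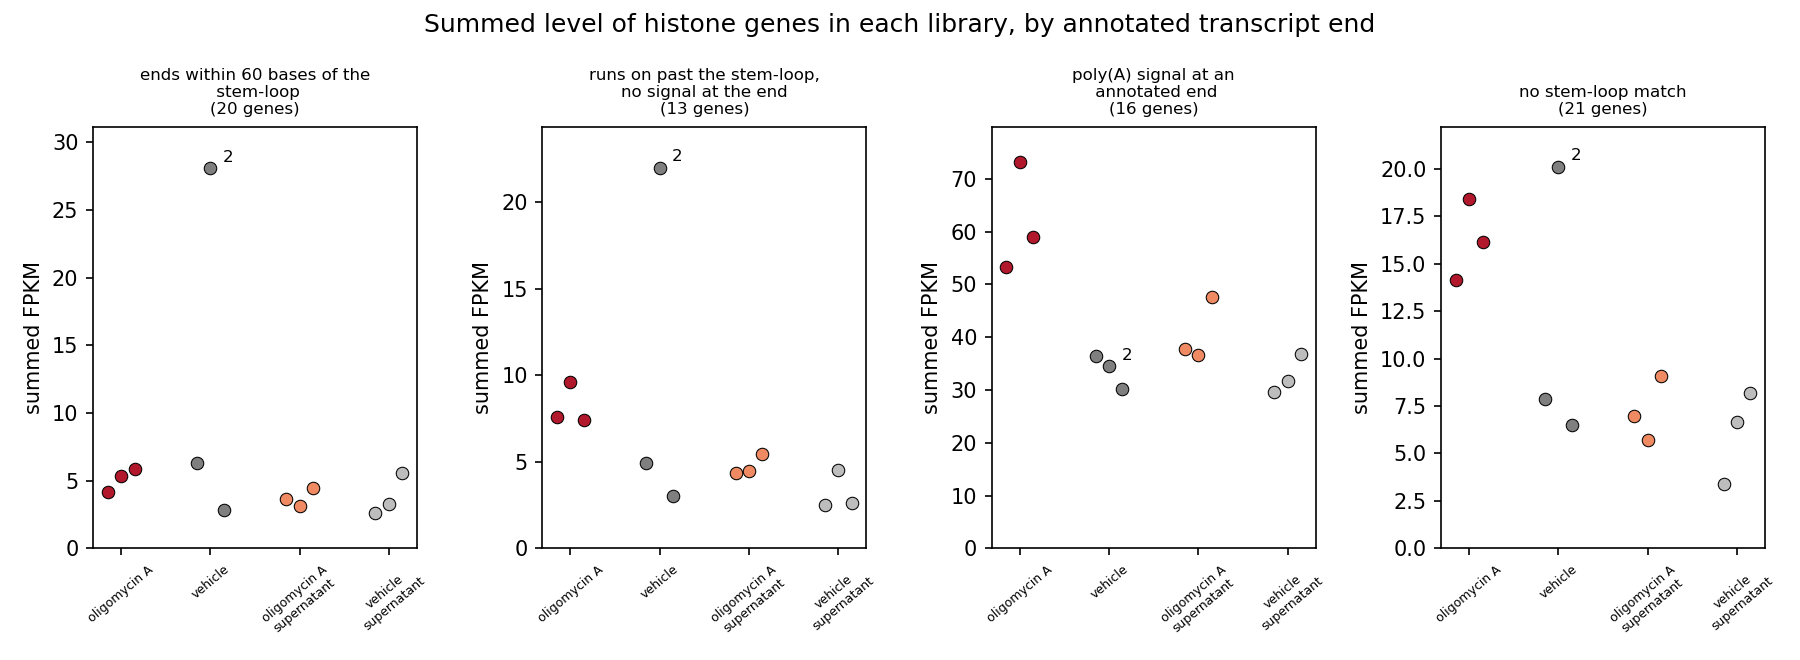
Summed FPKM of the histone genes in each of the 12 libraries of the oligomycin A table, 1 panel for each class of annotated transcript end and 1 point for each library, with vehicle replicate 2 marked 2. That library is above the other 11 in 3 of the 4 panels, most widely among the 20 genes that end at the stem-loop (28.1 FPKM against at most 6.29), and inside their range among the 16 genes with a poly(A) signal, most of whose sum is Hist1h1c.

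With oligomycin A the linker gene Hist1h1c and the H2B genes Hist1h2bc and Hist2h2be were higher than with vehicle, and 0 of the 5 histone genes tested were lower. The fit was limma on log2(FPKM + 1) over the 12 libraries of the table, with Benjamini-Hochberg adjustment over the 11902 genes whose mean was at least 1 FPKM; across all of them 442 were higher (3.71%) and 194 lower (1.63%). The other 65 histone genes were below that mean, so the 5 are not a sample of the 70. Hist2h2be passed that filter only through the oligomycin A group, where it averaged 1.97 FPKM, against 0.998, 0.662 and 0.704 FPKM with vehicle, oligomycin A supernatant and vehicle supernatant. The count of 3 of 5 therefore supports nothing about the histone genes as a set. Fold changes are on the log2(FPKM + 1) scale, which understates changes of low genes.

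Hist1h1c, which encodes the linker histone H1.2, was at 43.4, 59.3 and 48.1 FPKM with oligomycin A, against 29.2, 21.3 and 23.6 FPKM with vehicle. Each oligomycin A library was above each vehicle library, and the log2 change was 1.00 ± 0.14 (SE; limma adjusted p = 0.00244, n = 3 each). The call was made under every alternative run, with a change of 0.87 to 1.12 when any 1 library was left out. It was the only one of the 5 genes called in each of them.

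Hist1h2bc, an H2B gene with a spliced, downstream second exon, was at 10.2, 12.97 and 11.4 FPKM with oligomycin A, against 4.91, 4.94 and 4.33 FPKM with vehicle. The groups did not overlap and the log2 change was 1.12 ± 0.22 (limma adjusted p = 0.0148). Its call was lost, with the change at 1.04 to 1.13, without vehicle replicate 3 (adjusted p = 0.0553), without oligomycin A replicate 2 (0.0647), without oligomycin A replicate 3 (0.0512) and with no filter on low genes (0.0580), and the range over the 9 settings that keep every library was 0.000848 to 0.0580.

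Hist2h2be, an H2B gene of the Hist2 cluster with a long transcript and no other gene sharing its sequence, was at 1.79, 2.27 and 1.85 FPKM with oligomycin A, against 1.07, 0.735 and 1.18 FPKM with vehicle. The groups did not overlap and the log2 change was 0.58 ± 0.11 (limma adjusted p = 0.0142). The oligomycin A libraries decided that it was tested in this fit; it was also called with the filter at 0.2 FPKM, which every group passes (adjusted p = 0.0149), and with no filter (0.0437). Without oligomycin A replicate 2 its mean fell below the filter and it was not tested, and Hist1h1c was then the 1 histone gene called. Leaving out other libraries gave 2 to 4 calls.

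Hist3h2a, an H2A gene, lay below the filter but moved in the same direction: it was at 1.74, 1.90 and 1.85 FPKM with oligomycin A, against 0.705, 0.435 and 0.463 FPKM with vehicle, a log2 change of 0.89 ± 0.10. It was called where the filter was lowered to 0.2 FPKM (limma adjusted p = 0.000738), where there was no filter (0.00353) and where the fit held only the 6 libraries compared (0.00476). In that last fit the oligomycin A libraries decided that Hist3h2a was tested, as it averaged 1.83 FPKM there and 0.534 FPKM with vehicle. Hist3h2a overlaps exons of Trim17 and, on the opposite strand, Gm44313, and 70.2% of its 100-base stretches are unique.

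The remaining tested pair did not pass. Hist1h4i was at 3.99, 6.72 and 4.42 FPKM with oligomycin A, against 3.33, 3.45 and 3.29 FPKM with vehicle, with no overlap between the groups (log2 change 0.45 ± 0.16, limma adjusted p = 0.128). Hist1h2bg was at 4.16, 4.58 and 3.31 FPKM, against 1.77, 4.01 and 0.867 FPKM, and the groups overlapped through vehicle replicate 2 (0.75 ± 0.32, adjusted p = 0.190). Without that library its log2 change was 1.13 and it was called (adjusted p = 0.0372), which makes 4 calls in all. Over all genes the same omission left 286 higher and 366 lower, so vehicle replicate 2 moves the balance of the whole comparison, while the direction of these histone genes was the same with and without it.

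**Figure D4:**
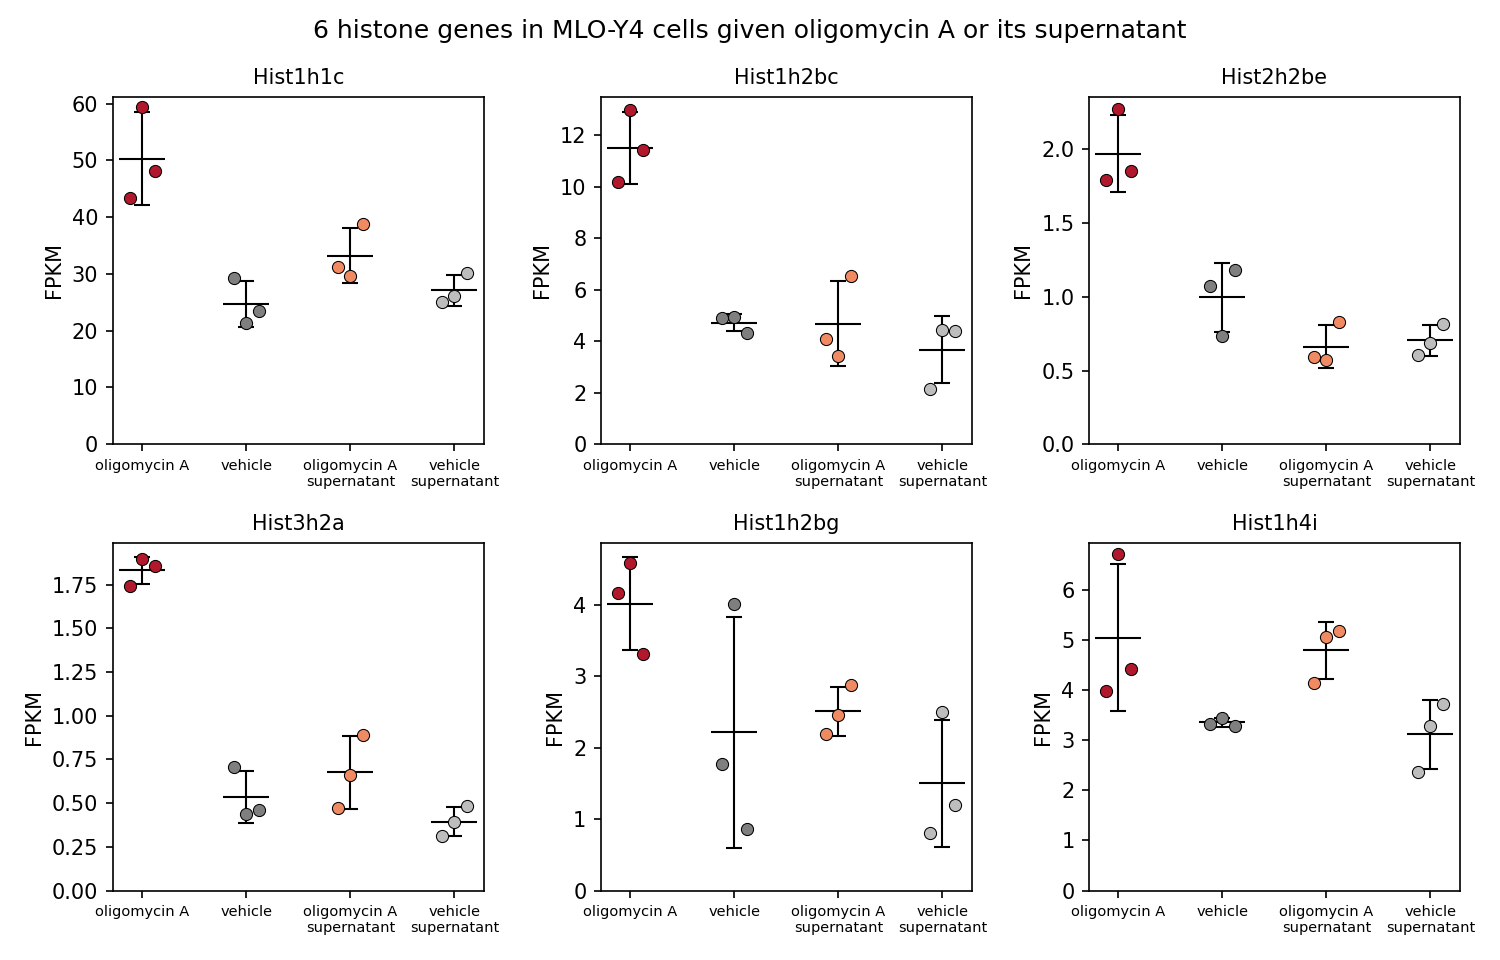
FPKM of 6 histone genes in the 12 libraries of the oligomycin A table (points: single libraries; bars: mean ± SD, n = 3; each axis starts at 0). For Hist1h1c, Hist1h2bc, Hist2h2be, Hist3h2a and Hist1h4i all 3 oligomycin A libraries lie above all 3 vehicle libraries, and for Hist1h2bg the groups overlap.

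Among histone genes of lower level, groups that did not overlap ran both ways. Of the 48 with a mean of at least 0.2 FPKM over the 6 libraries, 6 were higher in every oligomycin A library than in every vehicle library, against 14.4% of all genes at that level: Hist1h1c, Hist1h2bc, Hist1h4i, Hist2h2be, Hist3h2a and the H3 gene Hist2h3c1. A further 4 were lower in every one, against 12.1%: the H2A gene Hist1h2ai, the H3 gene Hist1h3c and the H4 genes Hist1h4b and Hist1h4h. These shares are near those of all genes. Of the 4 lower genes, Hist1h4b, Hist1h2ai and Hist1h4h reached the level of 0.2 FPKM only through the vehicle libraries. Their means with oligomycin A were 0.0274, 0.0676 and 0.171 FPKM. Each of the 4 had its highest value in vehicle replicate 2; Hist1h4b, for example, was at 0, 0.0238 and 0.0585 FPKM with oligomycin A, against 0.594, 2.13 and 0.335 FPKM with vehicle, and 0 of the 4 passed at the filter of 0.2 FPKM (limma adjusted p = 0.0875 for Hist1h4b, the lowest of the 4). Hist2h3c1 was at 0.985, 1.62 and 1.12 FPKM with oligomycin A, against 0.811, 0.651 and 0.677 FPKM with vehicle, and no 100-base stretch of it is unique. Hist1h3c was at 0.572, 0.785 and 0.710 FPKM, against 0.908, 2.19 and 0.861 FPKM.

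The balance of calls over all genes depended on how the libraries were scaled. Higher genes made up 69.5% of the calls as deposited and 93.1% when every library was rescaled to the same total FPKM (257 higher and 19 lower), which shifted the median of all genes by 0.12 on the log2 scale. Hist1h1c, Hist1h2bc and Hist2h2be were called under each of the 3 other scalings tried.

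Few genes of the lists for histone message processing, S phase, chaperones and mitosis passed. In the list of histone mRNA processing and decay, Slbp, whose protein binds the stem-loop, was at 24.3, 23.8 and 24.4 FPKM with oligomycin A, against 18.5, 16.6 and 18.3 FPKM with vehicle (log2 change 0.42 ± 0.08, limma adjusted p = 0.00945), and its call held under all 15 alternatives. Of the 15 genes of that list tested, 2 were higher and 0 lower; the other was Fip1l1, of the cleavage and polyadenylation machinery (0.34, adjusted p = 0.0438), whose call was lost in 10 of 15 alternatives. Of 28 S-phase genes tested Slbp was the 1 that passed, and the list's median was -0.0021. Of 14 histone chaperones Nasp, which carries H3 and H4, was higher (0.26, adjusted p = 0.0431), and of 18 mitosis genes Kif11 and Ttk were higher (0.31 and 0.29, adjusted p = 0.0284 and 0.0456), but these 3 calls were lost in 11, 8 and 9 of the 15 alternatives. The proliferation gene Mki67 was at 111.6, 108.5 and 105.1 FPKM with oligomycin A, against 108.7, 92.9 and 121.7 FPKM with vehicle.

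Of the 9 tested genes of the list of histone genes outside the clusters, 2 were higher and 1 lower. H3f3b, which encodes the replacement histone H3.3, was at 440.4, 481.9 and 454.8 FPKM with oligomycin A, against 349.8, 306.2 and 331.3 FPKM with vehicle (log2 change 0.48 ± 0.06, limma adjusted p = 0.00161), and its call held under all 15 alternatives. H2afx, the H2A variant phosphorylated at DNA breaks, whose gene is known to give a stem-loop-ended message as well as a polyadenylated one, was at 36.3, 43.7 and 37.9 FPKM against 29.36, 26.01 and 25.01 FPKM (0.54 ± 0.11, adjusted p = 0.0177, lost in 3 of 15). H2afj, another H2A variant, was the one lower, at 14.7, 14.1 and 14.4 FPKM against 19.9, 17.1 and 20.9 FPKM (-0.39 ± 0.08, adjusted p = 0.0142, lost in 5 of 15). The H1 replacement gene H1f0 missed the threshold (0.31, adjusted p = 0.0573). Of the genes tested in the lists for erythroid cells (1), neutrophil granules (3), B cells (1), bone matrix (6) and tailless RNAs (6), 0 passed; the median change of the tailless RNAs was -2.65, and they were high in vehicle replicate 2.

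The supernatant of oligomycin A cells changed none of the 5 tested histone genes past the threshold, where 0.386% of all genes passed in either direction (limma), and 1 of the 5 had an unadjusted p under 0.05. That gene was Hist1h4i, at 4.15, 5.07 and 5.17 FPKM with oligomycin A supernatant, against 2.37, 3.28 and 3.72 FPKM with vehicle supernatant (log2 change 0.50 ± 0.16, adjusted p = 0.346), with no overlap. Hist1h1c was at 31.2, 29.7 and 38.7 FPKM, against 24.98, 26.2 and 30.1 FPKM, and the groups overlapped (0.28 ± 0.14, adjusted p = 0.686). Hist1h2bg was at 2.19, 2.46 and 2.88 FPKM, against 0.800, 2.51 and 1.19 FPKM (0.54 ± 0.32, adjusted p = 0.769), and Hist2h2be changed by -0.04 ± 0.11. Of 23 histone genes at 0.2 FPKM or more, 3 were higher without overlap (Hist1h2ag, Hist1h3i and Hist1h4i), against 6.34% of all genes, and 1 was lower (Hist1h1b), against 6.71%. Hist1h3i reached that level only through the oligomycin A supernatant libraries (vehicle supernatant mean 0.184 FPKM), and Hist1h1b only through the vehicle supernatant libraries (mean 0.579 FPKM).

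The test of the difference itself, the response to supernatant minus the response to the drug, called 0 of the 5 histone genes (limma; 0.445% of all genes were called). The estimates for the 3 genes that oligomycin A raised were all negative and had unadjusted p under 0.05: -0.61 ± 0.16 for Hist2h2be (adjusted p = 0.163), -0.72 ± 0.20 for Hist1h1c (0.206) and -0.83 ± 0.31 for Hist1h2bc (0.361). These genes are thus not shown to respond differently to the drug and to its supernatant. This difference shares its vehicle and oligomycin A libraries with the comparison above, and the 2 are not independent.

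The vehicle supernatant set against the vehicle itself compares cells given medium from other cells for 2 h with cells given DMSO for 1 h, and it shares the vehicle libraries with the comparison of oligomycin A. It called 14.7% of all genes and 0 of the 5 histone genes (limma), 0 of them with an unadjusted p under 0.05. The lowest p was that of Hist2h2be, at 0.607, 0.688 and 0.816 FPKM with vehicle supernatant, against 1.07, 0.735 and 1.18 FPKM with vehicle (log2 change -0.22 ± 0.11, adjusted p = 0.204). Hist1h2bc changed by -0.34 ± 0.22 (0.341), Hist1h2bg by -0.30 ± 0.32 (0.568), Hist1h1c by 0.14 ± 0.14 (0.568) and Hist1h4i by -0.09 ± 0.16 (0.739).

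No histone gene passed the test with 2 µM ADP. In the 6 libraries of that table limma called 7 of 11604 genes (0.0603%) and 0 of the 5 histone genes tested, of which 1 had an unadjusted p under 0.05. Hist1h2bc was at 2.69, 3.00 and 2.37 FPKM with ADP, against 3.47, 3.75 and 3.64 FPKM without, lower in every library, with a log2 change of -0.33 ± 0.07 (adjusted p = 0.667). Without ADP replicate 1, the library high in 7S RNA, the change was -0.33 (0.346), and 0 of the 5 genes were called. Hist1h2bg was also lower in every library, at 1.25, 1.17 and 0.858 FPKM against 1.26, 1.39 and 1.53 FPKM (-0.20 ± 0.09, adjusted p = 0.842), though the nearest values, 1.25 with ADP and 1.26 without, are almost equal. Hist1h1c was at 10.1, 10.2 and 10.1 FPKM, against 9.35, 10.5 and 11.5 FPKM, and the groups overlapped (-0.03 ± 0.07, adjusted p = 0.966). Hist1h4i changed by -0.04 ± 0.09 (0.971) and Hist2h2be by -0.07 ± 0.07 (0.898). The summed level of the 70 genes was 27.3, 27.2 and 28.2 FPKM with ADP, against 31.4, 29.1 and 30.4 FPKM without. Of 18 histone genes at 0.2 FPKM or more, 0 were higher without overlap, against 5.38% of all genes, and 3 were lower (Hist1h2bc, Hist1h2bg and Hist1h3h), against 5.05%. No gene of the processing, S-phase, chaperone, mitosis or replacement histone lists passed with ADP, nor with the oligomycin A supernatant.

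**Figure D5:**
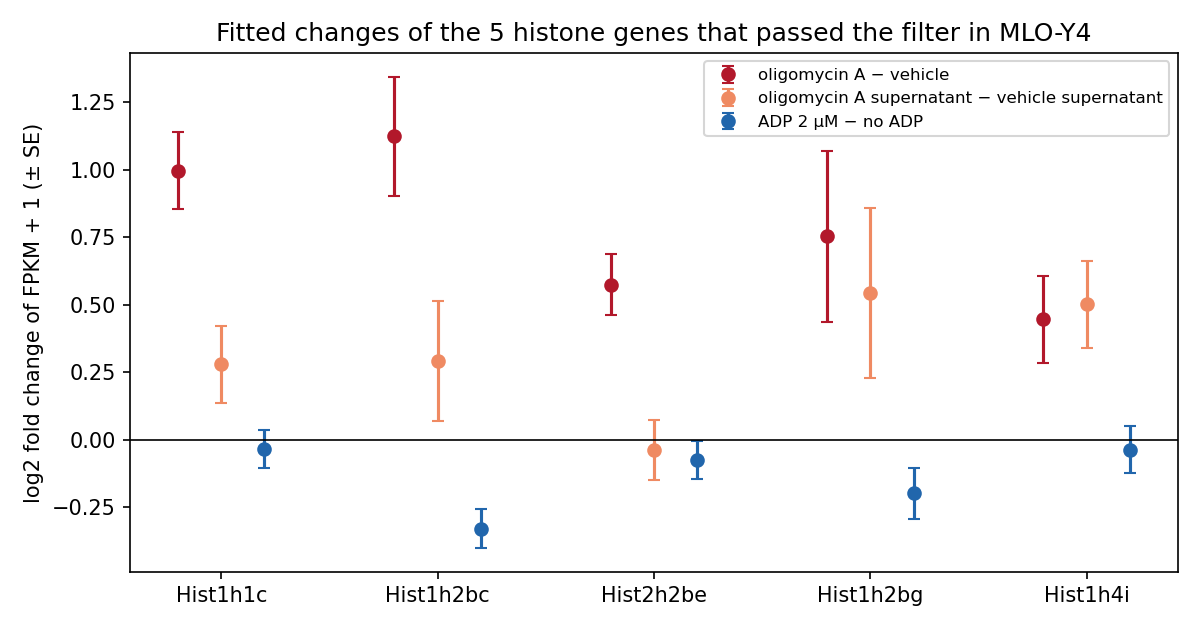
Log2 fold changes of FPKM + 1 (points, ± SE, limma) of the 5 histone genes that passed the filter in MLO-Y4, for oligomycin A minus vehicle, oligomycin A supernatant minus vehicle supernatant, and ADP minus no ADP. The changes with oligomycin A run from 0.45 to 1.12, of which those of Hist1h1c, Hist1h2bc and Hist2h2be passed, and those with ADP from -0.33 to -0.03, of which 0 passed.

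In young bone, medium transfer against control tested 33 histone genes, 0 of which were called and 0 of which had an unadjusted p under 0.05; limma called 4 of the 16438 genes tested (0.0243%). The median change of the histone genes tested turned with the scaling, as did that of all genes: it was 0.29 as deposited, against 0.45 for all genes, 0.71 against 0.78 when rescaled to the same total, -0.14 against 0.07 with median-of-ratios scaling, and -0.18 against -0.02 when rescaled without rRNA-like, 7S and satellite-like genes. The lowest p was that of the linker gene Hist1h1b, at 2.46, 11.2 and 0.822 FPKM with transfer, against 0.422, 1.25 and 1.18 FPKM in the control (1.16 ± 0.60, limma adjusted p = 0.900). Its groups overlapped, and the change was 0.40 without transfer replicate 2, the library with few satellite-like reads, whose bone-matrix genes had a median of 228.1 FPKM against 31.5 to 63.6 in the other 5. Hist2h2aa1, of which no 100-base stretch is unique, was listed at 0.519, 0 and 0 FPKM with transfer and at 0, 0 and 23.9 FPKM in the control, so 1 control library set its value. Hist1h1a was at 2.96, 2.42 and 0.715 FPKM with transfer, against 0, 0.547 and 0.457 FPKM in the control, each transfer library above each control library (1.12 ± 0.68, adjusted p = 0.900). Of 60 histone genes at 0.2 FPKM or more, 5 were higher without overlap (Hist1h1a, Hist1h1e, Hist1h2ab, Hist1h2bq and Hist2h2be), against 3.17% of all genes, and 1 was lower (Hist1h2af), against 1.6%. Hist1h2ab and Hist1h2bq reached that level only through the transfer libraries (control means 0.1995 and 0.0817 FPKM). As deposited, haemoglobin genes summed to 10490, 20820 and 12060 FPKM with transfer, against 8051, 3833 and 5251 FPKM in the control. The median change of the 7 erythroid genes tested was 1.33, with 0 called. These values depend on the scaling too: satellite-like genes took 5.80 to 89.9% of the FPKM with transfer and 81.7 to 88.6% in the control. A difference in red cell genes between the groups is therefore not shown. The part of red cell genes in the histone values was not tested. The SEs of the 33 genes ran from 0.60 to 0.92, so a change of 1 on the log2 scale is less than 2 SEs for each of them.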

How the data were processed

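RNA from 27 libraries in 9 groups of 3 was analysed; 21 further samples of the series were not analysed here. The values are FPKM, deposited by the authors in 4 gene tables; HTSeq and the build mm10 appear in the submitters' processing notes with no role, and the sources used here do not name the tool that made the FPKM. Per the labels' protocols, RNA was purified on oligo(dT) beads and sequenced on a NovaSeq instrument. Between 39.6 and 43.4% of low MLO-Y4 values were within 0.1 of whole fragments at the best depth, so counts could not be recovered and no count test was run.

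Tests used limma 3.58.1 (R 4.3.3, trended prior) on log2(FPKM + 1), genes at a mean of 1 FPKM or more, Benjamini-Hochberg over all genes tested, threshold 0.05; the 4 groups of the oligomycin A table shared 1 fit. Tests were also run on simulated data with independent noise for each gene. Those data held no shift of a whole library, so the run does not cover libraries such as vehicle replicate 2. Stem-loops, poly(A) signals, exons and shared 100-base stretches came from GENCODE M21 (55154 of 55335 IDs matched), promoters from RefSeq. Histone genes named are those called, the 8 highest of each table, the highest of each class, the 3 of lowest p in each comparison and those of Hist3 and Hist4; others named without overlap were chosen after their values were seen, as were Hist1h4a, Hist1h4c, Hist1h4h, Hist1h4k and those in the closing observations. Of the other lists, genes called are named. The histone genes and all lists were chosen with earlier results of these data known. Equal replicate numbers do not pair libraries: correlations of deviations were -0.23 to 0.06. At most 0.021% of values were equal between libraries of the same table, so none was counted as a duplicate.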

Additional observations from a re-analysis of the deposited data

How the results depend on the processing

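Of 546 alternative values, 517 were labelled as the same. Among the 429 fold changes, 411 kept direction and side of the threshold, 4 lost a call, 1 gained one and 13 changed sign. Only 3 gene results were called in the main fits, so most of those kept are changes that missed the threshold throughout. Settings in which a gene fell below the filter are not in this tally, as for Hist2h2be without oligomycin A replicate 2. Counts were labelled the same when near the main count, so that 4 calls in place of 3 pass as the same. By that rule 92 of 93 counts of called genes and 14 of 24 counts of detected genes were the same, and 11 counts moved. The sign changes were all of changes that missed the threshold, and their causes were not tested. The number of histone genes called with oligomycin A was 3 under each scaling and pseudocount, 4 with the filter of 0.2 FPKM and in the 6-library fit (Hist3h2a added), 3 with no filter (Hist3h2a called and Hist1h2bc lost), and 1 to 4 with a library left out, the lowest without oligomycin A replicate 2. In the 6-library fit Hist3h2a passed the filter only through the oligomycin A group. In the fit with the replicate block the count was 3 with oligomycin A and 0 in the other comparisons; equal numbers do not mark shared cultures in the labels. The 4 calls lost and the 1 gained in that tally are those of Hist1h2bc and Hist1h2bg given with their values above. Rescaling without rRNA-like, 7S and satellite-like genes was chosen after seeing the data.

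Rescaled to 1 total, Hist1h4i changed sign to -0.048 in the difference of responses and to 0.0020 for vehicle supernatant. With a library left out, Hist1h4i ran from -0.083 to 0.25 in the difference of responses, -0.20 to 0.045 for vehicle supernatant and -0.11 to 0.045 with ADP; Hist1h2bg from -0.59 to 0.12 in the difference and -0.63 to 0.078 for vehicle supernatant; Hist2h2be from -0.11 to 0.0097 for the oligomycin A supernatant; and Hist1h1c from -0.10 to 0.033 with ADP. Counts of detected genes depend on the threshold. With no ADP, 2 genes reached 5 FPKM. With vehicle, 33 reached 0.5 FPKM and 1 reached 5 FPKM. Leaving out a vehicle library gave 5 to 21, 5 being without replicate 2. In young control bone, 40 reached 0.5 FPKM and 6 reached 5 FPKM. Rescaling each library to a common total gave 16 with no ADP and 41 with vehicle. That total was well above the deposited totals of these libraries (274215 to 352370 FPKM). A rescaled value of 1 therefore stood for less than 1 FPKM. The rescaled counts thus reflect a lower threshold and show no effect of equal totals. The fits rescaled to the same total used a different one. By the estimated depths, values near or under 1 FPKM in young bone rest on few fragments.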

Other observations

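Hist1h1e, an H1 gene, was at 1.98, 23.5 and 0.950 FPKM in old cortical bone, high in replicate 2, where most other leading histone genes were lowest. Hist2h2aa1 ran the other way, at 74.2, 4.51 and 141.4 FPKM. The osteocyte gene Mepe was at 25, 147.8 and 25.9 FPKM and Dmp1 at 11.5, 43.9 and 10.9 FPKM in the same 3 libraries. The pseudogene Hist1h2al was at 0.774, 1.09 and 0.952 FPKM with oligomycin A, against 0.631, 0.844 and 0.188 FPKM with vehicle, and at 0.274, 0.535 and 0.643 FPKM in old bone. The testis gene Hist1h2aa was at 3.79 FPKM and Hist1h1t at 2.05 FPKM in young bone with medium transfer, replicate 1. No cause of these values was tested.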
